A study of Homo sapiens with 6 samples.

Results

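The splicing of the ubiquitin-specific proteases (USPs) was examined in NCI-H1975 cells, a human lung adenocarcinoma (LUAD) line, with and without overexpression of SAM68. The members were all alternative splicing (AS) events of genes whose symbol is USP followed by a number and at most 1 letter, except USP39, with a mean of at least 10 junction reads over the 6 libraries. They comprised 350 events of 41 genes, of 66400 events of 10147 genes in the 5 AS tables. Another 22 listed USP events lay below this minimum, among them every listed event of USP2 and USP41. The SAM68-overexpressing cells (n = 3) carried the PCDNA3.1-SAM68 plasmid, at 2 µg per well. The control cells (n = 3) carried the PCDNA3.1 plasmid without insert, also by lipofection and for 48 h. All 6 were RNA-seq libraries of the same line, so the data describe transient overexpression in 1 line and not the loss of SAM68. The tables hold 3 values per group in a fixed order with no replicate numbers, and libraries are named here by that order. The first list of each table was taken as the control because the study names its comparison in that order.

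USPs are the largest family of deubiquitinases. They are cysteine proteases that remove ubiquitin from proteins and so oppose the ubiquitin ligases that mark proteins for the proteasome, for endosomal sorting or for signalling. SAM68, encoded by KHDRBS1, is an RNA-binding protein of the STAR family that binds A- and U-rich RNA and changes the choice of exons in pre-mRNA. AS of a deubiquitinase can add or drop a stretch of protein, shift the reading frame or change only an untranslated region (UTR).

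Exon-skipping (SE) junction reads ranged from 16951876 to 19737729 per library. The third SAM68 library stood apart from its group, since the chi-square of counts divided by its degrees of freedom was 4.54 and 4.49 against the other SAM68 libraries, where the other pairs within groups had 3.14 to 3.56 and pairs between groups 4.48 to 6.40. KHDRBS1 was checked first, by the reads of its best-read event per 1000000 reads (rpm) of the best-read events of all genes. Its level was 319 ± 8.91 rpm (SD, n = 3) in the control cells and 1255 ± 23.1 rpm (SD, n = 3) in the SAM68-overexpressing cells, a log2 fold change of 1.98 (SE 0.047, limma adjusted p = 1.16e-21). Reads of the plasmid and of the gene cannot be told apart in this value. Of 11 epithelial markers of LUAD, 4 could be tested. KRT8 and KRT18 were high in all libraries, while KRT7 was at 1.26 to 4.48 rpm and MUC1 at 1.47 to 4.58 rpm. The summed level of the 4 tested markers was 734 to 997 rpm in the controls and 763 to 775 rpm under SAM68. KRT8 alone was at 520, 253 and 236 rpm in the controls. Of the markers of blood, endothelial and fibroblast cells, 0 of 11 had an event in the tables used, but only 5 of the 11 epithelial markers had one, so the tables say little on other cell types.

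Inclusion was measured as PSI, the percentage of transcripts that carry the inclusion form, from junction reads divided by the effective length of each form. ∆PSI denotes the mean PSI of the SAM68 libraries less that of the controls, in points of percent. The 350 USP events were 266 SE, 43 mutually exclusive exon (MXE), 18 alternative 5′ splice site (A5SS), 15 alternative 3′ splice site (A3SS) and 8 retained intron (RI) events. The 266 SE events described 231 distinct exons, and 56 of them shared a skipping junction with another member. USP10 had the most events (31), followed by USP48 (26) and USP34 (21). Coding sequence held 293 of the 350 events, the 5′ UTR 15 and the 3′ UTR 6. The mean depth of an event ranged from 10.5 to 1075 reads per library, with a median of 89.9.

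Most USP exons were included in nearly every transcript in both groups. PSI was at least 95% in both groups for 193 events and at most 5% in both for 35, while 68 events of 29 genes had a PSI of 10% to 90% in both. Of the 231 exons of SE events, 157 (68.0%) had a PSI of at least 95% in both groups, against 60.1% of 38792 exons of all genes. Only 15 (6.49%) had a PSI of 10% to 90%, against 10.6% of all exons. Of 7 wholly coding USP exons in that range, 6 (85.7%) had a length of a multiple of 3, which keeps the reading frame, against 58.6% of all such exons. Among the 150 wholly coding USP exons with a PSI of at least 95%, the share was 36.0%, against 40.5%. With 7 exons, the first share is a description.

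No USP event passed the test between the groups. The quasi-binomial test with moderated dispersion, at an adjusted p under 0.05 and a ∆PSI of at least 10 points, called 0 of 350 USP events and 17 of 66399 events of all genes (0.0256%). Without the limit on ∆PSI it also called 0 USP events, against 64 of all events (0.0964%). The smallest adjusted p of a USP event was 0.209. At an unadjusted p under 0.05 there were 22 USP events (6.29%), against 8.44% of all events. A ∆PSI of at least 10 points in either direction was found for 20 (5.71%), 9 higher and 11 lower, against 7.17%. The groups did not overlap in 15 (4.29%), 9 higher and 6 lower in the SAM68-overexpressing cells, against 6.1%. These shares lay somewhat below those of all genes, and no test bears on the differences. The median depth was also lower, at 89.9 reads for the USP events and 111 for all events. The median ∆PSI was 0.0534 points for the USP events and 0.005 points for all events, and the median absolute ∆PSI was 1.27 and 1.24 points. Of the USP events, 148 differed by less than 1 point and 296 by less than 5 points.

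Other tests gave other counts. Limma on the logit of PSI called 0 USP events and 3 of all events. A likelihood ratio test on pooled counts, which has no spread between libraries, called 7 USP events of USP8, USP32, USP37 and USP53, against 1353 of all events (2.04%). Raising each event's dispersion to at least 1 before moderation, a setting chosen after seeing the data, called 3 events of USP8, against 93 of all events (0.14%). These USP8 events are described next.

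**Figure D1:**
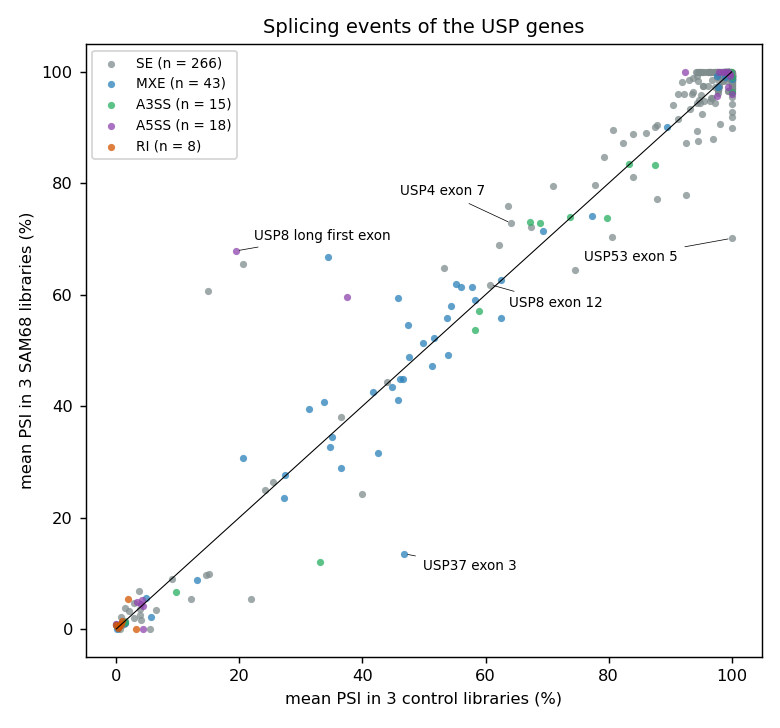
Mean PSI (%) of the 350 USP events in 3 control libraries (x axis) and 3 SAM68 libraries (y axis), with 1 point per event, coloured by event type, and the line of equal PSI. Most points lie at the upper right corner and along the line, and the long first exon of USP8 lies farthest above it, at 19.4% and 67.8%.

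USP8 deubiquitinates receptors such as EGFR at endosomes and so bears on their sorting and breakdown. Its gene (ENSG00000138592.13) lies on chromosome 15 of GRCh38, positions 50424380 to 50514421, plus strand, and has 20 exons in its canonical transcript. USP50 overlaps it on the other strand. The first exon ends at 1 of a pair of 5′ splice sites, 140 nt apart, both in the 5′ UTR. A further 5′ UTR exon of 162 nt, at 50432338 to 50432499, can follow it. The sites are shown because the largest ∆PSI values of the family belong to them, with the last 9 nt of the exon, then the first 9 nt of the intron, and the GT of the intron in capitals.
USP8 short first exon, chr15:50424506-50424523, plus strand: ggcgtcacgGTgagtgcg
USP8 long first exon, chr15:50424646-50424663, plus strand: ctcctaaagGTagaatca
USP8 exon between, chr15:50432491-50432508, plus strand: tttaaaaagGTcagtgtg

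The long first exon of USP8 made up more of the reads in each SAM68 library than in any control library. The junction of the short first exon gave 41, 54 and 59 reads for the controls and 7, 29 and 0 reads under SAM68. The long first exon had 23, 26 and 24 inclusion reads in the controls and 33, 29 and 29 under SAM68. The count of the short form was uneven among the SAM68 libraries, since the second SAM68 library had 29 reads of it and the third had none. As a share of reads, the long form was 35.9% (Wilson 95% interval 25.3% to 48.2%), 32.5% (23.2% to 43.4%) and 28.9% (20.3% to 39.4%) in the controls. It was 82.5% (68.1% to 91.3%), 50% (37.5% to 62.5%) and 100% (88.3% to 100%) under SAM68. In the last, 0 of 29 reads allows a share of the short form of up to 10.3%. These intervals and limits cover counting error only.

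By PSI the long first exon was at 21.9%, 19.4% and 16.9% in the controls and at 70.2%, 33.3% and 100% under SAM68. The group means were 19.4% ± 2.50 (SD, n = 3) and 67.8% ± 33.4 (SD, n = 3), a ∆PSI of 48.4 points. The groups did not overlap, and the exact two-sided permutation p was 0.1, the smallest that 3 against 3 allows. The adjusted p was 0.50 in the quasi-binomial test and 0.00119 with the dispersion raised before moderation, and it ranged from 2.92e-10 on pooled counts to 0.92 over the alternatives. Without the third SAM68 library ∆PSI was 32.4 points. The inclusion reads of this event are divided by an effective length of 260 nt, so PSI is lower than the share of reads. They were not shown to come from 1 junction only, and the share of reads is not corrected for length.

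Another 2 members share the junction of the short first exon as their skipping form, and they are therefore not independent of the first exon event. The 162 nt exon, counted against that junction, had PSI values of 25.5%, 25.5% and 10.6% in the controls and 60%, 36.3% and 100% under SAM68. Its ∆PSI was 44.9 points, with the lowest p of all USP events (unadjusted p = 0.000439, adjusted p = 0.209). An exon of 59 nt at 50424596 to 50424654, which ends at the long site, went from 14.9% ± 0.393 to 60.6% ± 36.6 (SD, n = 3, adjusted p = 0.229). Without the third SAM68 library these values of ∆PSI were 27.6 and 26.1 points. The inclusion reads did not move in this way, since the junctions of the 162 nt exon had 28, 37 and 14 reads in the controls and 21, 33 and 32 under SAM68. Counted against the junction of the long first exon, in an event chosen after its values were seen, the same 162 nt exon went the other way, from 39.9% ± 12.1 to 24.2% ± 11.2 (SD, n = 3, adjusted p = 0.53). The direction for this exon thus depended on the first exon it was counted with.

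**Figure D2:**
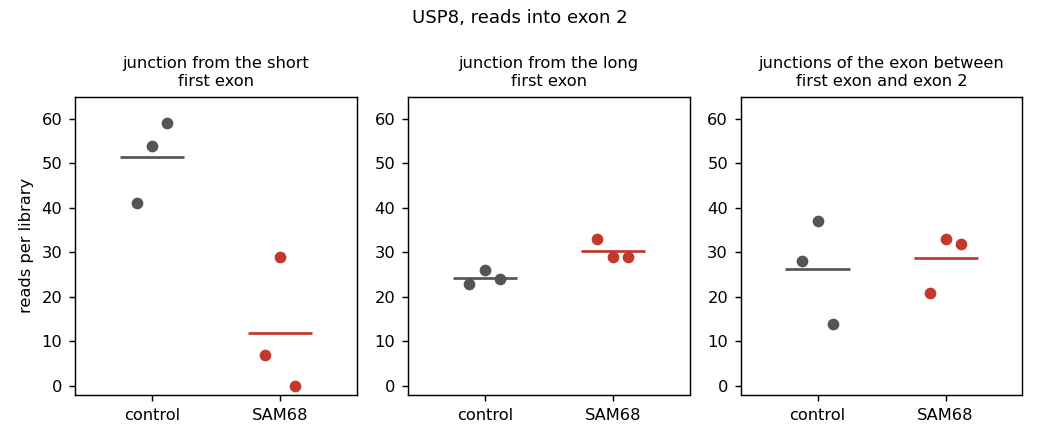
Reads per library (y axis) of USP8, with 1 point per library and a line at the mean of 3. The panels show the junction from the short first exon, the inclusion reads of the long first exon and the junctions of the exon between. The 3 SAM68 libraries had 7, 29 and 0 reads of the short form against 41, 54 and 59 in the controls, while the long form had 29 to 33 reads against 23 to 26, and the groups overlap in the third panel.

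The best-read event of USP8, another exon of the gene, had 25, 25.3 and 26.4 rpm in the controls and 18.9, 21.1 and 25.3 rpm under SAM68. The log2 fold change was −0.24 (SE 0.155, limma adjusted p = 0.575). The third SAM68 library, with no read of the short first exon, was the highest of its group here.

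USP37, which deubiquitinates cyclin A and other cell cycle and replication proteins, had the next lowest p by gene. Its gene (ENSG00000135913.10) lies on the minus strand of chromosome 2 and overlaps VIL1 on the other strand. An MXE event set exon 3 (218560820 to 218560883, 64 nt), in the 5′ UTR, against exon 4. Exon 3 had 9, 17 and 11 reads in the controls and 3, 2 and 5 under SAM68, and exon 4 had 28, 15 and 15 and then 31, 19 and 34. PSI of exon 3 was 30.2%, 60.4% and 49.7% in the controls and 11.5%, 12.4% and 16.5% under SAM68. The groups did not overlap, with ∆PSI at −33.3 points, an adjusted p of 0.234 and an exact permutation p of 0.1. The SE event of the same exon gave 91.2% ± 0.779 and 96.0% ± 6.87 (SD, n = 3, adjusted p = 0.653), so its inclusion was high in both groups by that count. The 3′ splice site that lengthens exon 4 by 40 nt was used at 36.6%, 36.1% and 26.6% in the controls and at 8.45%, 7.14% and 20.4% under SAM68, with a depth of 11 to 28 reads. Its adjusted p was 0.67. Those sites, 24 nt each with the AG in capitals, are shown because 2 of the larger ∆PSI values of the family meet at this exon. This A3SS event and the SE event of exon 3 were chosen after their values were seen.
USP37 3′ splice site of the longer exon 4, chr2:218558710-218558733, minus strand: tatttttcttccttAGaacctgcc
USP37 3′ splice site of the shorter exon 4, chr2:218558670-218558693, minus strand: ttgctttttaatttAGccagaagc

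The other low p values rested on few reads of the rarer form. In USP53, a relative of USP54 long classed as catalytically inactive, exon 5 (686 nt, partly coding) had PSI 100% in all 3 control libraries and 100%, 81.0% and 29.4% under SAM68. Its skipping junction had 0, 0 and 0 reads and then 0, 2 and 6 reads, the adjusted p was 0.518, and ∆PSI was −29.9 points with all libraries and −9.52 without the third SAM68 library. In USP21, which acts on histone H2A, the longer form of exon 9 (59 nt) was at 94.8%, 82.4% and 100% in the controls and at 100% in the 3 SAM68 libraries (adjusted p = 0.515). The groups overlapped, and ∆PSI of 7.62 points was 2.60 without the second control library. In USP34, which stabilises axin in WNT signalling, an intron of 2012 nt was retained at 1.88%, 2.02% and 1.63% and then at 10.2%, 4.12% and 1.75% (adjusted p = 0.536). Its ∆PSI of 3.53 points was 1.10 without the first SAM68 library and 6.36 without length normalization.

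Among events with at least 50 reads, the larger differences outside USP8 overlapped between the groups. In USP54, exon 22 had no skipping read in the first control library and 21 and 24 in the others, and 3, 11 and 22 under SAM68. Its PSI was 100%, 63.8% and 60% in the controls and 90.2%, 57.7% and 45.7% under SAM68 (∆PSI −10.1 points, adjusted p = 0.592). The direction rested on single libraries, since ∆PSI was 2.62 points without the first control library, −0.67 without the third SAM68 library and −22.9 without the first SAM68 library. In USP42, a regulator of p53, exon 3 against exon 4 was at 32.3%, 41.2% and 63.7% and then at 51.3%, 67.0% and 60% (∆PSI 13.7 points, adjusted p = 0.75). Its ∆PSI was 7.03 points without the first control library and 22.7 without the third. In USP32, a membrane-anchored USP, exon 5 against exon 6 was at 32.7%, 39.0% and 55.8% and then at 38.3%, 28.4% and 28.0% (∆PSI −10.9 points, adjusted p = 0.612). Its ∆PSI was −4.23 points without the third control library. The next pair of USP32, exon 6 against exon 7, chosen after its values were seen, did not overlap but differed by 7.13 points (adjusted p = 0.736). In USP13, a relative of USP5, exon 3 against exon 4 was at 30.6%, 18% and 13.2% and then at 20.1%, 32.1% and 39.8% (∆PSI 10 points, adjusted p = 0.748). Its ∆PSI was 5.47 points without the third SAM68 library, 6.34 without the third control library and 15.3 without the first SAM68 library.

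Coding exons of intermediate PSI included exons of USP4, USP15, USP8, USP54 and USP47, each with a length that is a multiple of 3. USP4 and USP15 are paralogs that deubiquitinate components of TGF-β signalling, and USP47 acts in DNA repair. The exons are shown because transcripts with and without an in-frame coding stretch were both read there. Apart from that of USP54 they were chosen after their values were seen. Capitals mark TAAA or TTAA, the DNA letters of short A- and U-rich motifs of the kind SAM68 binds, overlaps included.
USP4 exon 7, chr3:49311514-49311654, minus strand: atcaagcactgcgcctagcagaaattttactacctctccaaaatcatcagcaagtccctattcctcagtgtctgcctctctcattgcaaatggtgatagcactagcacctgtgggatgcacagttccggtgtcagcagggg
USP15 exon 7, chr12:62349221-62349307, plus strand: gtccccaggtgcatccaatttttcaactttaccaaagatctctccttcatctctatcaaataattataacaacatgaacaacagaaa
USP8 exon 12, chr15:50484275-50484361, plus strand: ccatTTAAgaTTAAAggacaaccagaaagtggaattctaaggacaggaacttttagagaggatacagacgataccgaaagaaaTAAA
USP54 exon 22, chr10:73504850-73504990, minus strand: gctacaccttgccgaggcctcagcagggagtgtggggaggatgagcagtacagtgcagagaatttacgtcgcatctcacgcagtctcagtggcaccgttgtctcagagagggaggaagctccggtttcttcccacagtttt
USP47 exon 2, chr11:11880177-11880380, plus strand: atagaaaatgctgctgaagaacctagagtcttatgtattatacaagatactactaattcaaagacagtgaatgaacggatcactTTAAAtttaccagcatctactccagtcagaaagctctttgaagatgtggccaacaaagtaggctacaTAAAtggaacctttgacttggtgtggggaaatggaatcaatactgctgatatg

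USP4 exon 7 (141 nt) was the only one of these 5 exons whose groups did not overlap. Its PSI was 63.4%, 70.6% and 58.5% in the controls and 72.0%, 73.8% and 72.6% under SAM68. The ∆PSI was 8.65 points, with an adjusted p of 0.565 and an exact permutation p of 0.1. USP15 exon 7 (87 nt) was at 60.1%, 51.4% and 75.1% and then at 71.7%, 70.7% and 64.4% (adjusted p = 0.565), and these groups overlapped. USP8 exon 12 (87 nt) was at 64.4%, 54.9% and 63.0% in the controls and at 60.5%, 60.3% and 64.6% under SAM68. Its ∆PSI was 1.05 points (adjusted p = 0.858) and lay between −1.87 and 2.85 when 1 library was left out. This exon holds 4 of the motifs. USP47 exon 2 (204 nt), with 3 motifs, was at 78.4%, 86.4% and 87.0% and then at 85.6%, 78.9% and 78.8% (adjusted p = 0.715). The exons of USP4, USP15 and USP54 held 0 of the motifs.

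The intron stretches beside the exons were searched as well. In 100 nt of intron on each side of the exon, on the transcript strand, at least 1 TAAA or TTAA was found for 200 of 231 USP exons (86.6%), against 71.1% of 38792 exons of all genes. For the 15 USP exons with a PSI of 10% to 90% the share was 73.3%, against 71.3% of all such exons. All 231 USP exons were bordered by AG before and GT or GC after. A match of 4 letters is not a binding site, and these windows were not compared for base composition.

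Closely spaced 3′ splice sites gave USP transcripts that differ by a few nt. Of 15 A3SS events of USP genes, 5 (33.3%) had sites 3 nt apart, against 14.4% of 4558 in all genes. The sites are shown with each AG in capitals, and inclusion means use of the first AG, which gives the longer exon. Except for the 6 nt pair of USP19, these events were chosen after their values were seen.
USP16 exon 6, chr21:29037262-29037285, plus strand: ttctttttttaaAGcAGagaaaga
USP19 exon 11, chr3:49115935-49115958, minus strand: tccccctttttaAGgtgcAGtggg
USP19 exon 6, chr3:49117352-49117375, minus strand: tgtatctttggcAGaAGaaacctc
USP48 exon 14, chr1:21721157-21721180, minus strand: tctctgttccacAGcAGcgatgga
USP48 exon 10, chr1:21729823-21729846, minus strand: tttctctatctcAGcAGaaccttc

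USP19, a USP anchored in the endoplasmic reticulum, used the first AG of the 6 nt pair at 67.4%, 68.4% and 70.8% in the controls and at 69.1%, 76.1% and 73.5% under SAM68 (adjusted p = 0.709). Its 3 nt pair in exon 6 was at 83.4% ± 3.13 and 83.5% ± 1.24 (SD, n = 3, adjusted p = 0.983). In USP48, a USP of DNA repair, exon 14 was at 78.4%, 85.4% and 75.5% and then at 75.3%, 74.4% and 71.9%. These groups did not overlap but nearly met, with ∆PSI at −5.89 points and an adjusted p of 0.679. Exon 10 of USP48 was at 87.5% ± 3.81 and 83.2% ± 9.13 (SD, n = 3, adjusted p = 0.737). In USP16, which acts on histone H2A, the first AG of exon 6 was used at 64.7%, 56.8% and 53.5% and then at 40.1%, 58.3% and 62.8% (adjusted p = 0.735). The last exon of USP36, a nucleolar USP, has 3′ splice sites 23 nt apart in the 3′ UTR, used at 59.0% ± 6.57 and 57.1% ± 6.10 (SD, n = 3, adjusted p = 0.925). Both forms of each pair were thus present in both groups.

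**Figure D3:**
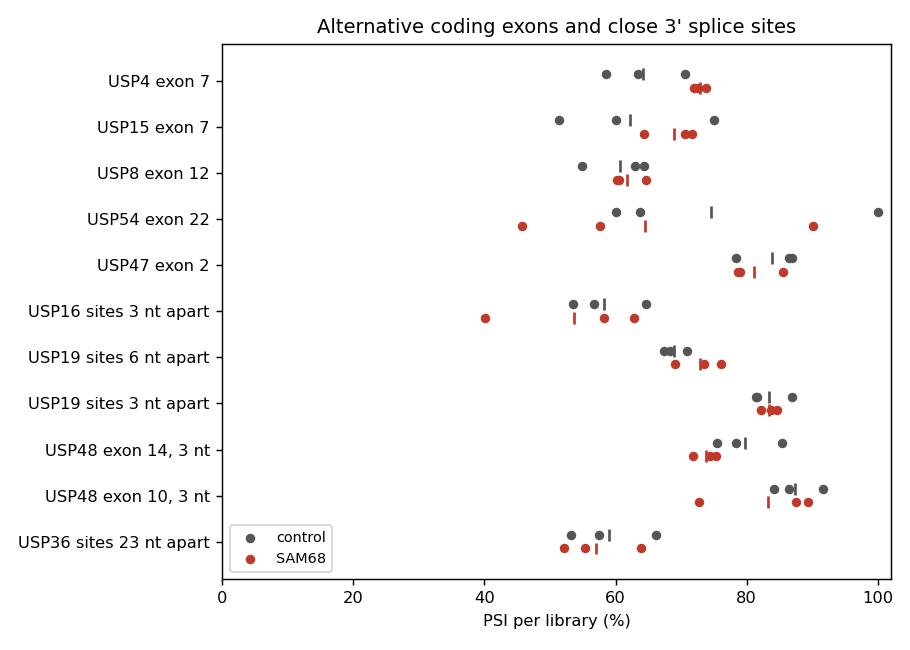
PSI (%) per library (x axis) of 5 alternative coding exons and 6 pairs of close 3′ splice sites of USP genes, with 1 point per library and a short bar at the mean of each group of 3. For USP4 exon 7 the 3 SAM68 libraries, at 72.0% to 73.8%, lie above the control libraries, at 58.5% to 70.6%.

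By PSI, the deepest USP events with an appreciable share of both counts were of the MXE type, apart from the 6 nt pair of USP19. Their group means lay within about 7 points of each other. A PSI near the middle in an MXE event does not show that the exons replace each other, as described below. In USP22, the deubiquitinase of the SAGA complex, exon 6 against exon 7 was at 51.2%, 49.3% and 48.9% in the controls and at 51.5%, 55.6% and 46.8% under SAM68, with 956 to 1221 reads per library (adjusted p = 0.878). In USP5, which recycles free ubiquitin chains, exon 4 against exon 5 was at 46.1% ± 0.324 and 44.8% ± 1.83 (SD, n = 3, adjusted p = 0.87). In USP14, the USP of the proteasome, exon 3 against exon 4 was at 32.2%, 34.8% and 34.3% and then at 43.1%, 38.2% and 41.0%. These groups did not overlap, with a ∆PSI of 7 points, an unadjusted p of 0.0285 and an adjusted p of 0.488. In USP10, which deubiquitinates p53, exon 3 against exon 9 was at 53.9% ± 4.78 and 49.1% ± 5.50 (SD, n = 3, adjusted p = 0.714). For USP4, USP9X and USP34 the means of the 2 groups differed by 1.99, 0.66 and 1.19 points, and each of these differences took either sign when 1 library was left out.

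MXE events need a caveat on what they count. In all 43 USP events the paired exons occur together in at least 1 annotated transcript, and in 35 they are neighbours in the canonical transcript, against 94.3% of 8791 MXE events of all genes for the first. A transcript that holds both exons gives junction reads to both forms. In USP22, exons 6 and 7 had mean PSI values of 99.8% to 100% in their own SE events, in both groups. In USP10, the reads of exon 3 and exon 9 were also the inclusion reads of SE events. There exon 3 was at 99.6% and 100%, and exon 9 at 99.5% and 100%. Counted against other skipping junctions, exon 3 was at 87.6% and 90.1% at the lowest. For these pairs an MXE PSI near the middle is thus not a share of alternative forms. PSI was 40% to 60% in the control cells for 20 of the 43 USP events (46.5%), against 36.2% of all MXE events.

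Some events were read in only part of a group, with a form at 0 reads in 1 library and at least 10 in another library of the same group. There were 11 such members, in USP8, USP10, USP28, USP43, USP45 and USP54. In USP28, which stabilises MYC, exon 3 was at 81.8%, 64.3% and 56.0% in the controls and at 72.7%, 100% and 43.9% under SAM68 (adjusted p = 0.772). Its exon 2 was at 65.3%, 48.5% and 46.1% and then at 64.0%, 100% and 30.2%, and the library at 100% had 3 reads. In USP10, a 53 nt exon outside the canonical transcript had 0, 14 and 5 inclusion reads and then 0, 14 and 2, for a mean PSI of 1.37% and 1.41% (adjusted p = 0.942). In USP45, an exon of 71 nt had 0, 14 and 2 inclusion reads and then 0, 1 and 3. In USP43, the 15 nt longer form of exon 12 had PSI values of 39.2%, 0.0% and 73.0% and then 93.9%, 47.4% and 37.6%, on 2 to 18 reads. The spread within a group was as large as or larger than the difference between groups in these events of USP28, USP10, USP45 and USP43.

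The reads of the USP genes were compared next, by the best-read event of each gene. These reads stand for the transcripts that cross that event and are not a count over the whole gene. By limma, at an adjusted p under 0.05 and a log2 fold change of at least 1, 0 of 41 USP genes were called, against 5 of 10147 genes (0.0493%). At an unadjusted p under 0.05 there were 9 USP genes (22%), against 12.1% of all genes. The groups did not overlap for 11 USP genes (26.8%), against 16.8% of all genes, and 10 of them (24.4%) were lower in the SAM68-overexpressing cells, against 10.8%. No test bears on these shares. The median log2 fold change was −0.07 for the 41 genes and −0.03 for all genes, and 22 USP genes lay below 0 and 19 above it.

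USP10 had the lowest p. It had 127, 106 and 113 rpm in the controls and 92.5, 99.3 and 79.6 rpm under SAM68, a log2 fold change of −0.35 (SE 0.092, limma adjusted p = 0.0807). Leaving out 1 library gave limma adjusted p values from 0.0273 to 0.422. Each SAM68 library was below each control library. USP16 had 39.3, 41.8 and 28.8 rpm and then 21.3, 28.3 and 25.3 rpm (log2 fold change −0.54, SE 0.153, limma adjusted p = 0.116). USP14 was in the other direction, with 108, 115 and 117 rpm and then 137, 126 and 144 rpm (log2 fold change 0.26, SE 0.078, limma adjusted p = 0.145). USP44, a regulator of the mitotic checkpoint, had low levels of 3.45, 4.46 and 4.18 rpm and then 2.37, 0.367 and 0.734 rpm (log2 fold change −1.63, SE 0.479, limma adjusted p = 0.125). USP54 went from 14.5 ± 1.89 to 9.17 ± 1.65 rpm (SD, n = 3, limma adjusted p = 0.201). In these 5 genes the groups did not overlap, and none passed the threshold.

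By the rpm of the best-read event, the USPs with the highest levels were USP22, USP5, USP10, USP14 and USP11. Per junction, which sets events of unlike make-up on 1 scale, USP22 was highest at 93.0 ± 7.96 and 99.0 ± 10.7 rpm (SD, n = 3), followed by USP5 at 90.7 ± 2.06 and 85.0 ± 3.39. USP22 and USP5 differed by less than the spread of USP22 in the control cells, and by more than it in the SAM68-overexpressing cells. USP10 followed at 81.1 ± 7.04 and 63.6 ± 7.07, and USP14 at 57.1 ± 2.20 and 68.6 ± 5.14. USP11 was at 27.3 ± 3.42 and 29.9 ± 3.78, below USP7 on this scale, which was at 33.0 ± 5.54 and 34.5 ± 7.05 and was named after its values were seen. USP14 was thus below USP10 in the control cells and above it on average in the SAM68-overexpressing cells. The median over the 41 genes was 11.5 rpm per junction in the control cells.

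**Figure D4:**
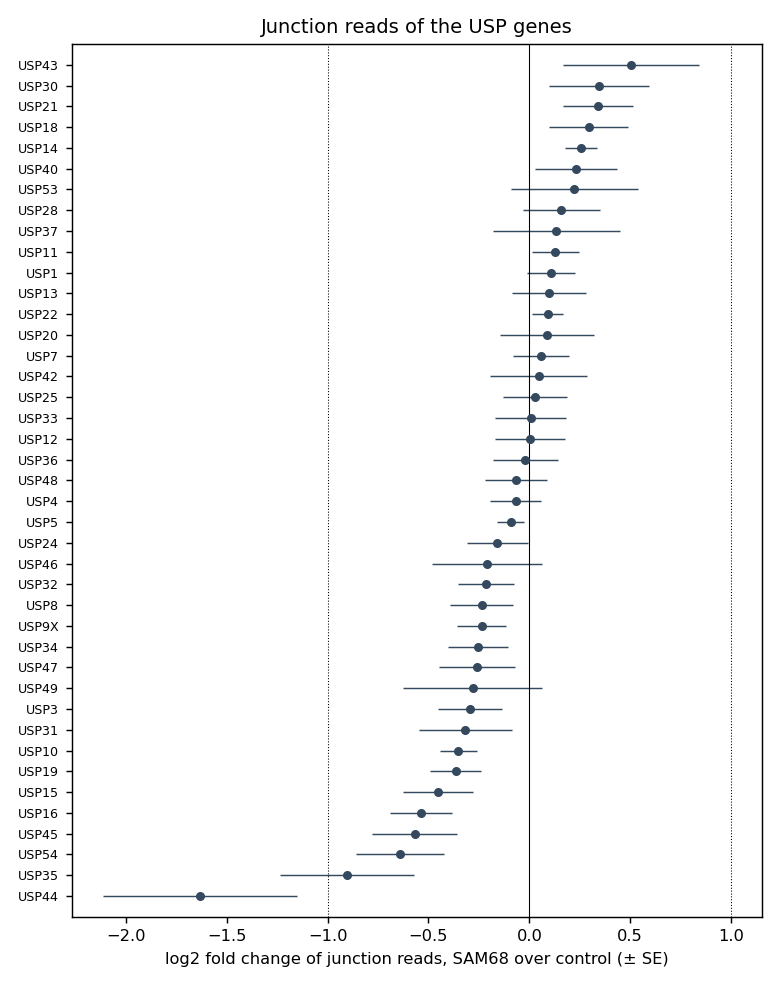
Log2 fold change of junction reads (x axis, SAM68 over control) of the 41 USP genes, with 1 point per gene from 3 libraries a group and bars of 1 SE, and dotted lines at the limits of −1 and 1. USP44, at −1.63, lies beyond a limit without passing the test, and USP43, at 0.50, is the highest, with 86 reads in 1 SAM68 library and 34 and 24 in the others and 0.07 to 0.83 on leaving out 1 library.

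By role, no group of USPs held a called gene or event. Of 6 tested USPs listed for histones H2A or H2B (USP3, USP16, USP21, USP22, USP44 and USP49), 4 were below 0 and 2 above on the log2 scale, with a median of −0.29 and values from USP44 at −1.63 to USP21 at 0.34. Of 8 USPs of DNA damage and replication, 5 were above 0, with a median of 0.08, and their 98 events held 4 with a ∆PSI of at least 10 points. The 6 endosomal and receptor USPs had a median of −0.11 and 5 such events of 51, 4 of them in USP8. The 5 USPs of TGF-β and WNT signalling had 4 below 0, with a median of −0.24, and 0 of 55 events at 10 points. For USP14, USP5 and USP13, which act at the proteasome or on free chains, the median was 0.10 and 1 of 34 events reached 10 points. USP53 and USP54 had 4 of 14 events at 10 points, all lower. The WDR48-dependent USP1, USP12 and USP46, and USP30 and USP36 of mitochondria and nucleolus, had medians of 0.00 and 0.16, with 0 of 10 and 3 of 16 events at 10 points. USP18, which acts on ISG15, was at 0.29 (0.13 to 0.50 on leaving out 1 library), with 0 of 4 events at 10 points. The background for these counts of 10 points is the 7.17% given above.

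The partners of the family and the other deubiquitinases held no called gene. Of 12 partners of USPs, such as WDR48 and GMPS, 10 were tested, 0 were called, and their median log2 fold change was −0.01. Of 32 deubiquitinases of other families, 29 were tested, 0 were called, 21 were below 0 and 8 above, and their median was −0.07. Of all genes 5783 were below 0 and 4364 above. Of their 196 events 0 were called and 16 reached 10 points. Of the genes for ubiquitin and its activating enzymes, 4 of 6 were tested by reads, with 0 called.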

How the data were processed

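RNA was sequenced from 6 libraries, 3 control and 3 SAM68, and their replicates are described as biological by the study. Reads of 150 nt in pairs had been filtered with fastp, trimmed of their first 18 bases and aligned with HISAT2 to GRCh38 (CASAVA 1.4, fastp 0.20.0 and HISAT2 2.1.0 per the submitters' processing notes). The authors counted junction reads with rMATS, and the deposited tables hold raw junction counts of inclusion and skipping, with effective lengths per event as the score the authors' tool gave and the inclusion levels. The deposited p-values, false discovery rates and inclusion differences of the authors were not used. The annotation release they used is not given in the sources used here. Of 78336 events, 275 of the A3SS table had lists with digits regrouped by a spreadsheet; 167 were recovered from the inclusion levels and 108 left out, none of a USP gene. A further 540, with 2 of USP10 and USP7, could be read in more than 1 way and were kept as printed. Each value column was assigned to a group, with 0 left over.

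PSI was recomputed from counts and lengths; for MXE events it refers to the exon nearer the 5′ end of the gene. Testing was limited to a mean depth of 10 reads or more, with a quasi-binomial model in R 4.3.3. The dispersion was moderated within each event type (limma 3.58.1) and held at 1 or above, and p was adjusted by Benjamini-Hochberg within each type. Of 66400 events, 1 could not be fitted. Gene reads were tested with limma with trend on log2(rpm + 0.5), where a fold change understates the change of low genes. This replaced the count test that had been planned, which was not run. Limma p-values were adjusted over 10147 genes. P-values of the moderated tests rest on the spread between these libraries, drawn towards a spread shared over many events or genes. Those on pooled counts hold no spread between libraries. Single events were given exact two-sided permutation tests. Chi-square per degree of freedom between libraries was 3.14 to 4.54 within groups and 4.48 to 6.40 between them, so no library was a copy of another.

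The members and gene lists were chosen with earlier results of these data known. Named events were, with 1 event per gene, the 5 with the lowest p, the 5 with the largest ∆PSI at 50 reads or more and the 8 deepest with both forms at 10% or more, and all those read in part of a group; genes named were the 5 with the lowest p and the 5 with the highest level. Positions, exon numbers and sequences came from GENCODE 44 and its GRCh38 genome, in which 41 of 41 gene identifiers matched. Of these genes, 11 overlap another coding gene. On simulated data with 200 of 58672 events changed by 30 points, the event test recovered 197 (98.5%) and called 8 unchanged events. Simulated events with reads of 1 form only, which the tables do not hold, had been left out. No such share was taken for the USP events, or by depth or spread. The 98.5% therefore does not measure what the test could find among the USP events. For 10147 genes with 200 changed 4-fold, limma with trend recovered 198 (99.0%). The splicing events of the genes for ubiquitin and its activating enzymes are not reported here.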

Additional observations from a re-analysis of the deposited data

How the results depend on the processing

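The count of 0 called USP events says little on stability where few of all events are called. It held with a minimum of 20 reads, without a limit on ∆PSI, with all types adjusted together and without length normalization. It also held with events of a shared exon summed, and 16 to 64 events of all genes were called under these settings. It was also 0 under settings that call little anywhere, which say little on stability: a minimum of 1 read called 5 events of all genes, a limit of 20 points 10, robust moderation 12, the larger of own and shared dispersion 3, unmoderated dispersion 2, limma on the logit 3, and leaving out each library 2 to 4. In the simulation of 58672 events the unmoderated test recovered 26.5% of changed events, and limma on the logit, run on 58673, recovered 70%. The likelihood ratio test on pooled counts gave 7 USP events, and the dispersion raised to at least 1 before moderation gave 3. A prior learned only from events with at least 30 reads of the rarer form, also chosen after seeing the data, gave 0. The count of USP events with a ∆PSI of at least 10 points, 20 in the report, was 34 with a minimum of 1 read and 13 without length normalization, and 20 to 22 on leaving out a library. For USP53 exon 5, ∆PSI ranged from −44.8 to −9.52 points on leaving out a library. For 26 single events, run without length normalization and on leaving out each library, 177 values stayed within the spread between libraries and 5 moved, in USP21, USP34 (in both ways), USP53 and USP8. No USP gene was called by reads (0) under any setting run, but these called few of all genes: 5 in the report, 3 to 4 with another scaling, filter or choice of events, 42 without a limit on the fold, and 1 to 14 on leaving out a library. Count tests in other packages were not run. Median-of-ratios size factors were run, with 0 USP genes and 3 of all genes called. No paired analysis was possible because the lists carry no replicate numbers. Depth limits the rarer forms: the differences of USP53, USP21 and USP34 rested on few reads of that form.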
